A study of Homo sapiens with 21 samples.

Results

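The loss of a GSX2 response was measured in 12 of the 21 RNA libraries of this study, the 4 groups of 3 libraries labelled NoDox and Dox at 24 h and 48 h. They were chosen by these labels, and 19655 expressed genes were tested in them. All libraries came from H9, a human embryonic stem cell line, with the genotype TRE3G-2xFLAG GSX2 WT, a tagged wild-type GSX2 transgene behind a doxycycline-responsive promoter. All were differentiated toward a fate resembling the lateral ganglionic eminence (LGE) with LDN193189, SB431542 and XAV939, then LDN193189 and SB431542, then IWP2 and Activin A. Dox cultures received doxycycline at 100 ng/mL for 12 h from day 10, and NoDox cultures carried the same transgene without the drug, so effects of the drug cannot be told apart from those of the transgene. The labels do not say whether 24 h and 48 h count from the addition of doxycycline or from its removal. Nothing in the labels says whether the replicates were separate cultures or whether the line is 1 clone. The p-values therefore measure the spread between these samples, which may be technical.

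GSX2 is a homeobox transcription factor of progenitors in the LGE, the ventral telencephalic region that produces striatal projection neurons and olfactory bulb interneurons. It is known to repress dorsal telencephalic genes such as those of the cortical primordium, and its DLX-expressing progeny become GABAergic neurons. FGF signals act through the kinase ERK, which switches on its own inhibitors, the SPRY and DUSP genes, and the ETV factors, so the levels of these genes are used as a readout of the pathway. Cultures that are left to differentiate also change by themselves, so a Dox effect can shrink because the Dox cultures return, because the NoDox cultures arrive at the same level, or through both.

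Each gene was described by 5 log2 values from 1 fit. The Dox effect is Dox over NoDox at 24 h or at 48 h. The change of the Dox effect is the effect at 48 h minus that at 24 h, which equals the Dox arm (Dox at 48 h over Dox at 24 h) minus the NoDox arm (NoDox at 48 h over NoDox at 24 h). A change was called Dox-led where the Dox arm was at least 2 times the size of the NoDox arm, NoDox-led in the reverse case, and otherwise a change of both arms; this class rests on the size of the arms and was not tested. Levels are CPM, the counts of a gene relative to its library's total, scaled by TMM. The log2 values stand with an approximate standard error (n = 3 libraries per group), and adjusted p-values below 0.05 by edgeR's quasi-likelihood test were called.

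The 12 libraries held 18138858 to 33842591 counts each. In none of the 4 groups did replicates match as closely as counting error alone allows (chi-square over its degrees of freedom, 1.87 to 5.85). The neural progenitor genes SOX2, PAX6 and NES were present in all 12 libraries, SOX2 at 748 to 1196 CPM. Since these are bulk samples, fewer cells of a type and less RNA per cell cannot be told apart in any result.

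The transgene was nearly gone at 48 h. Its level was 0.233, 0.126 and 0.0457 CPM in NoDox at 24 h, 13.6, 19.6 and 25.2 CPM in Dox at 24 h, 0.212, 0.102 and 0.523 CPM in NoDox at 48 h and 0.877, 0.955 and 0.970 CPM in Dox at 48 h. The 3 Dox libraries at 24 h lie above all others, and at 48 h the Dox libraries still lie above the NoDox libraries, on 50 reads in all. The Dox arm fell by 4.37 ± 0.30 on the log2 scale (adjusted p = 1.32e-09), and the change of the effect was -5.24 ± 1.22 (adjusted p = 0.0041). With few reads in the NoDox libraries this value is rough. Without NoDox 48 h replicate 3 its adjusted p was 0.0746. Reads counted for GSX2 itself (chromosome 4, 54099523 to 54102498, hg38) stood at 14.7, 12.1 and 11.3 CPM in NoDox at 24 h, 4.04, 5.48 and 9.31 CPM in Dox at 24 h, 13.2, 10.6 and 9.41 CPM in NoDox at 48 h and 2.03, 1.91 and 1.94 CPM in Dox at 48 h. On these reads, which may include reads of the transgene, the Dox effect went from -1.04 ± 0.22 to -2.49 ± 0.31. The change of -1.45 ± 0.40 (adjusted p = 0.0121) was Dox-led. In the 12 h groups, outside this part, GSX2 counts were 7751, 7527 and 5815 in Dox against 208, 179 and 161 in NoDox. The same Dox libraries at 12 h held 26585, 24223 and 14612 transgene counts. In Dox at 24 h there were 98, 126 and 206 GSX2 counts beside 331, 451 and 558 transgene counts. In Dox at 48 h there were 37, 36 and 32 beside 16, 18 and 16. Reads of the transgene that were counted for GSX2 were not separated. How much of the fall in the Dox arm, and so of the larger effect at 48 h, is the transgene's own loss was not tested.

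Across all genes the Dox effect changed between 24 h and 48 h for 5064 genes. It changed upward for 2491 (12.7% of those tested) and downward for 2573 (13.1%), and the size was at least 2-fold for 517 and 578 of them. With library totals as the only scaling the same split was 1886 upward and 3190 downward. That scaling moved the median of all genes from -0.0159 to -0.173 in the Dox arm and from 0.00302 to -0.0926 in the NoDox arm, and the directions below are relative to the TMM scale. The effect itself was called for 3349 genes upward (17%) and 3316 downward (16.9%) at 24 h, and for 1814 upward (9.23%) and 1757 downward (8.94%) at 48 h. The 48 h split was 1017 and 2835 with library totals only, and the upward count was 1041 without NoDox 48 h replicate 2 and 1056 without Dox 48 h replicate 1. Of the 1406 genes that differed by at least 2-fold at 24 h, 180 still did so in the same direction at 48 h.

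At the arm ratio of 2, Dox-led changes were the most frequent class. Of the 5064 genes, 3274 (64.7%) were Dox-led, 643 (12.7%) were NoDox-led and 1147 (22.7%) changed through both arms, 692 of these with the arms moving in opposite directions and 455 in the same direction. The class depends on the ratio chosen: with a ratio of 3 in place of 2, 2261 genes (44.6%) were Dox-led, 452 (8.93%) NoDox-led and 2351 (46.4%) of both arms. Among upward changes 70.9% were Dox-led, and among downward ones 58.6%. The arms themselves moved broadly: 5782 genes rose (29.4%) and 5793 fell (29.5%) in the Dox arm, against 4224 (21.5%) and 3909 (19.9%) in the NoDox arm. With library totals only these splits were 4103 and 7720 in the Dox arm and 2954 and 5368 in the NoDox arm. In the scatter of the arms, the class definition places Dox-led genes along the vertical axis and NoDox-led ones along the horizontal axis. The band at the diagonal, where both arms moved alike, is empty because only called changes are drawn.

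**Figure D1:**
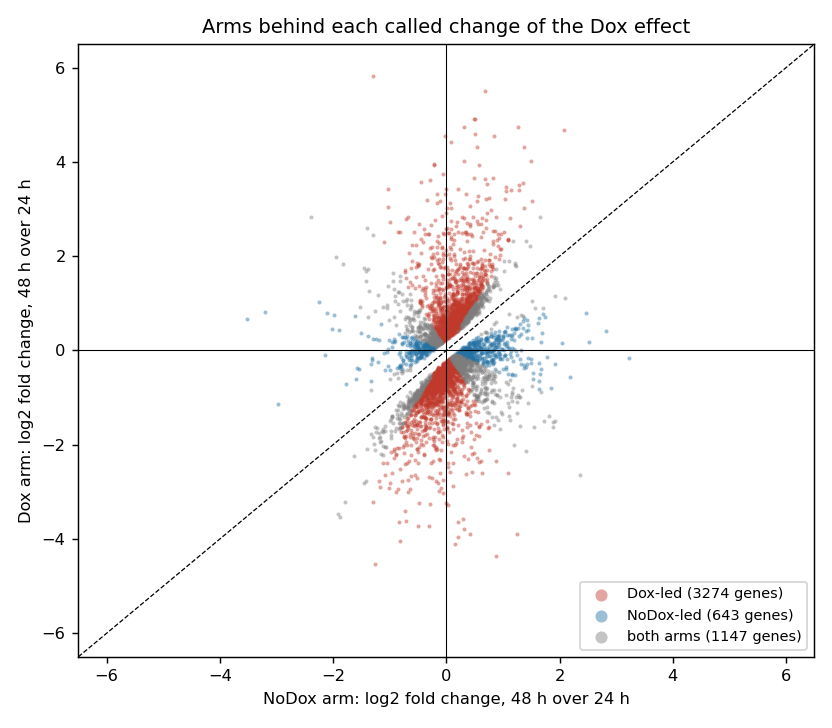
The log2 fold change from 24 h to 48 h in NoDox (horizontal axis) and in Dox (vertical axis) for the 5064 genes whose Dox effect changed; points are genes, coloured by arm class, and the dashed line marks equal movement. By the class definition the 3274 Dox-led genes spread vertically and the 643 NoDox-led genes horizontally.

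The effect mostly shrank or crossed zero. Its sign was the same at both times and its size smaller for 1237 of the 5064 genes (24.4%), the same and larger for 265 (5.23%), and opposite for 3562 (70.3%); without NoDox 48 h replicate 2 the genes with a larger effect were 176. By their calls, 1411 genes went from a called increase at 24 h to no call and 1366 from a called decrease to no call. A smaller group was called in both directions, 250 genes below NoDox at 24 h and above it at 48 h, and 229 the other way. Another group had no call at 24 h and was called at 48 h, 505 genes upward and 495 downward. The median effect of the genes that changed downward was 0.41 at 24 h and -0.18 at 48 h, and of those that changed upward -0.37 and 0.16; the call itself selects for such differences.

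**Figure D2:**
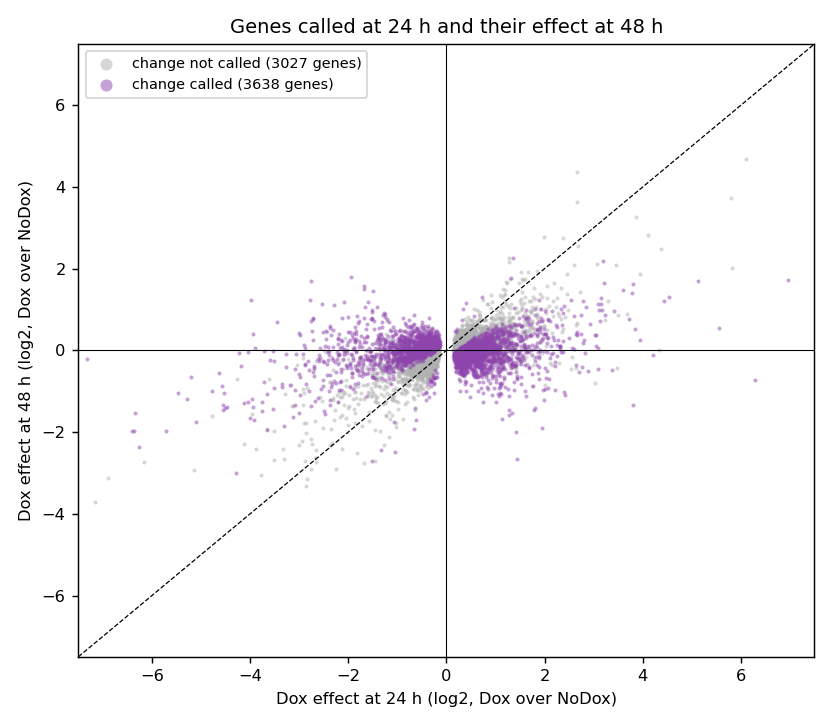
The Dox effect at 48 h (vertical axis, log2) against that at 24 h (horizontal axis, log2) for the 6665 genes called at 24 h; points are genes, purple where the change was called, and the dashed line marks an unchanged effect. The 3638 genes with a called change include 1411 that went from a called increase and 1366 that went from a called decrease to no call at 48 h.

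Among the largest Dox-led losses were genes that were high with doxycycline at 24 h and not called at 48 h. KDR, the main receptor for VEGF (chromosome 4, 55078481 to 55125595), was at 1.69, 2.22 and 2.33 CPM in NoDox at 24 h, 32.9, 41.9 and 39 CPM in Dox at 24 h, 1.70, 2.86 and 3.61 CPM in NoDox at 48 h and 2.25, 2.49 and 2.91 CPM in Dox at 48 h. At 48 h the Dox libraries lie within the range of the NoDox libraries. The Dox arm fell by 3.90, the NoDox arm was at 0.42 ± 0.30, and the change was -4.31 ± 0.39 (adjusted p = 4.94e-08). FAM181B, L1TD1, an RNA-binding protein gene of pluripotent cells, and the extracellular protease gene ADAMTS15 followed, with changes of -3.31 ± 0.32, -2.67 ± 0.18 and -2.37 ± 0.42. Their effects went from 3.85, 3.05 and 2.25 at 24 h to 0.53, 0.38 and -0.13 at 48 h, none of the latter called.

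The mirror group was low with doxycycline at 24 h and rose in the Dox arm. PCDH20, a protocadherin gene, was at 8.10, 5.46 and 5.98 CPM in NoDox at 24 h, 0.124, 0 and 0.0904 CPM in Dox at 24 h, 10.6, 8.78 and 8.21 CPM in NoDox at 48 h and 2.14, 2.97 and 1.82 CPM in Dox at 48 h. The gain was large but incomplete, since the Dox libraries at 48 h lie below every NoDox library. Its effect went from -6.40 ± 0.38 to -1.98 ± 0.21, a change of 4.42 ± 0.54 (adjusted p = 4.47e-07). Very few reads were counted for it in Dox at 24 h, so the sizes of that effect and of the change are rough. TRIM67, a ubiquitin ligase gene of neurons, returned further: its group means in NoDox and Dox at 24 h and NoDox and Dox at 48 h were 3.57, 0.188, 3.10 and 2.99 CPM, and its effect at 48 h was -0.05 ± 0.29. In the same order CCSER1 was at 8.77, 0.471, 8.39 and 6.44 CPM, the follistatin-like gene FSTL5 at 11.9, 0.428, 17.4 and 8.74 CPM and the receptor gene GPR149 at 21.2, 0.883, 26.6 and 14.5 CPM. Of these 3, FSTL5 (-0.99) and GPR149 (-0.87) were still called lower at 48 h and CCSER1 was at -0.38 ± 0.18.

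Some dorsal telencephalic regulators regained part or all of their level under doxycycline, and others did not. Of the list, 9 of the 19 tested members had a positive change and 2 a negative one, with a median of 0.73, against 12.7% and 13.1% of all genes and a median of 0.00246. The median effect was -1.27 at 24 h, with 15 members lower and 2 higher, and -1.07 at 48 h, with 8 lower and 2 higher. In the Dox arm 8 members rose and 7 fell, and in the NoDox arm 2 rose and 12 fell. Of the 11 changes 7 were Dox-led, 1 NoDox-led and 3 of both arms. Counts of the lists below stand against the same shares of all genes. Their Dox-led counts stand against 64.7% of all called changes, and lists were classed at the arm ratio of 2 only. EMX2, a homeobox factor of the developing cortex (chromosome 10, 117542445 to 117549546), was at 327, 309.5 and 306 CPM in NoDox at 24 h, 25.1, 18.8 and 17.3 CPM in Dox at 24 h, 405, 354 and 379 CPM in NoDox at 48 h and 152, 149 and 134 CPM in Dox at 48 h. The Dox arm rose by 2.83 ± 0.10 while the NoDox arm moved by 0.27 ± 0.09, and the change was 2.56 ± 0.13 (adjusted p = 2.34e-13). All 3 Dox libraries at 48 h still lie below all NoDox libraries, with an effect of -1.38 ± 0.09. Its antisense transcript EMX2OS ran in parallel (-3.96 to -1.18); reads of overlapping genes may be shared between them, since the strand setting of the counting is not given in the sources used here.

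TBR1, a factor of early cortical neurons (chromosome 2, 161416297 to 161425870), was no longer called lower at 48 h. It was at 65.8, 56.1 and 53.6 CPM in NoDox at 24 h, 13.2, 8.79 and 6.96 CPM in Dox at 24 h, 70.4, 62.3 and 53.8 CPM in NoDox at 48 h and 62.9, 56.4 and 54.4 CPM in Dox at 48 h, and the Dox and NoDox ranges overlap at 48 h (effect -0.10 ± 0.19). PAX6, which marks dorsal and radial glial progenitors, was not called at 48 h either, with group means of 247, 130.3, 212 and 219 CPM and an effect of 0.05 ± 0.07 at 48 h. LHX9 regained less, going from -3.52 to -1.43. In EOMES, the factor of cortical intermediate progenitors, both arms moved: its means were 90.0, 9.10, 48.5 and 13.3 CPM, so the Dox arm rose (0.55) while the NoDox arm fell (-0.89) and the effect went from -3.30 to -1.86. The 2 members with a negative change were FEZF2 (-0.92 ± 0.11) and LHX2 (-0.41 ± 0.13), both higher with doxycycline at 24 h (1.67 and 0.76). NEUROG1, a proneural factor, did not recover: it fell in both arms, from 14.4 to 3.62 CPM in NoDox and from 1.98 to 0.348 CPM in Dox, and its effect was -2.86 and -3.33.

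The sequence before the start of TBR1 is shown because the gene was low in Dox at 24 h and higher at 48 h, and because it holds TAATTA, a core bound by homeobox factors (in capitals, either strand). It is the 250 bases before the RefSeq start on GRCh38.p14, at chr2:161416047-161416296, plus strand.
TBR1: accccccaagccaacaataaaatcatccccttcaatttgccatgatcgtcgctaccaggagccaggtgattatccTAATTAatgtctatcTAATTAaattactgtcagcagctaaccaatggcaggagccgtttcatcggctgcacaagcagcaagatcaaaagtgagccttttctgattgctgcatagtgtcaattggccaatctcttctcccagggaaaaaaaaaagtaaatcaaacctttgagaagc
TAATTA was found in 3 of 24 such windows of the dorsal list (12.5%) and in 4.35% of all 35116 windows. None of the 10 windows of the LGE list held it, which are too few to set against the share of all windows. A match is a description of the letters and does not show binding, and some windows lie inside a longer transcript of their gene.

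LGE regulators changed in different ways. Of the list, 7 of the 16 tested members had a positive change and 3 a negative one, with a median of 0.61. Of the 10, 8 were Dox-led, against 64.7% of all called changes. DLX6, a homeobox gene of LGE-derived neuroblasts (chromosome 7, 97005553 to 97011040), was at 11.9, 7.81 and 7.62 CPM in NoDox at 24 h, 2.51, 3.00 and 2.26 CPM in Dox at 24 h, 11.5, 9.55 and 8.05 CPM in NoDox at 48 h and 19.1, 17 and 16.2 CPM in Dox at 48 h. It went from below every NoDox library at 24 h to above every one at 48 h, with effects of -1.83 ± 0.21 and 0.85 ± 0.18 and a change of 2.67 ± 0.28 (adjusted p = 9.63e-08). DLX6 lies within the span of the antisense transcript DLX6-AS1, which is more abundant, so reads may be shared between them and the part of this in the crossing was not tested. Its neighbour DLX5 went from -1.63 to 0.52 ± 0.24. MEIS1, a partner of HOX and PBX proteins in the LGE, was at 39.3, 32.4 and 35.6 CPM in NoDox at 24 h, 10.5, 7.09 and 6.92 CPM in Dox at 24 h, 62.3, 58.7 and 55.8 CPM in NoDox at 48 h and 67.8, 57.3 and 61.1 CPM in Dox at 48 h, so that the Dox and NoDox ranges overlap at 48 h (change 2.20 ± 0.15, adjusted p = 2.91e-11). The zinc finger gene SP9 went from -1.17 to 0.71 and PBX3 from -0.61 to 0.17.

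DLX1 and DLX2, the earliest DLX genes of the LGE, behaved otherwise. DLX1 was at 53.7, 44.6 and 39 CPM in NoDox at 24 h, 129, 98.7 and 89.7 CPM in Dox at 24 h, 33.1, 21.4 and 21.4 CPM in NoDox at 48 h and 55.1, 62.6 and 57.7 CPM in Dox at 48 h. Dox libraries lie above the NoDox libraries at both times, both arms fell (-0.86 and -0.86), and the effect was 1.20 at 24 h and 1.21 at 48 h; its change was 0.01 ± 0.31 with a 95% interval of -0.64 to 0.66. DLX2 went from 0.53 ± 0.26 to 1.47 ± 0.27, a change of 0.94 ± 0.37 (adjusted p = 0.076) with an interval of 0.15 to 1.73 that did not pass. Beside GSX2, whose reads may include those of the transgene, the negative changes were SIX3 (-0.72 ± 0.12) and SP8 (-0.31 ± 0.10).

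Genes of GABAergic and striatal neurons that changed did so through the Dox arm, mostly upward. Of the list, 7 of the 22 tested members had a positive change and 2 a negative one, with a median of 0.15. All 9 were Dox-led at the arm ratio of 2, against 64.7% of all called changes. GAD1, which makes GABA from glutamate (chromosome 2, 170813213 to 170861151), was at 28.7, 20.6 and 20.9 CPM in NoDox at 24 h, 17.8, 12.3 and 11.6 CPM in Dox at 24 h, 32.8, 24.1 and 24.6 CPM in NoDox at 48 h and 49.9, 43.5 and 44.1 CPM in Dox at 48 h. The Dox libraries are the lowest of the 4 groups at 24 h and the highest at 48 h, with effects of -0.76 ± 0.16 and 0.75 ± 0.15 (change 1.51 ± 0.22, adjusted p = 2.65e-05). SLC32A1, the vesicular GABA transporter, had no call at 24 h (-0.38 ± 0.21) and was higher at 48 h (0.98 ± 0.20), at 20.1, 17.9 and 16.5 CPM against 12.5, 8.02 and 7.06 CPM. DLX6-AS1, an antisense transcript of the DLX5 and DLX6 locus, went from 27.3 to 294 CPM in Dox against 218 and 219 CPM in NoDox. GAD2, the second GABA-making enzyme, had a change of -0.34 ± 0.34 (interval -1.03 to 0.35). With library totals only, the list had 5 upward and 3 downward changes.

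**Figure D3:**
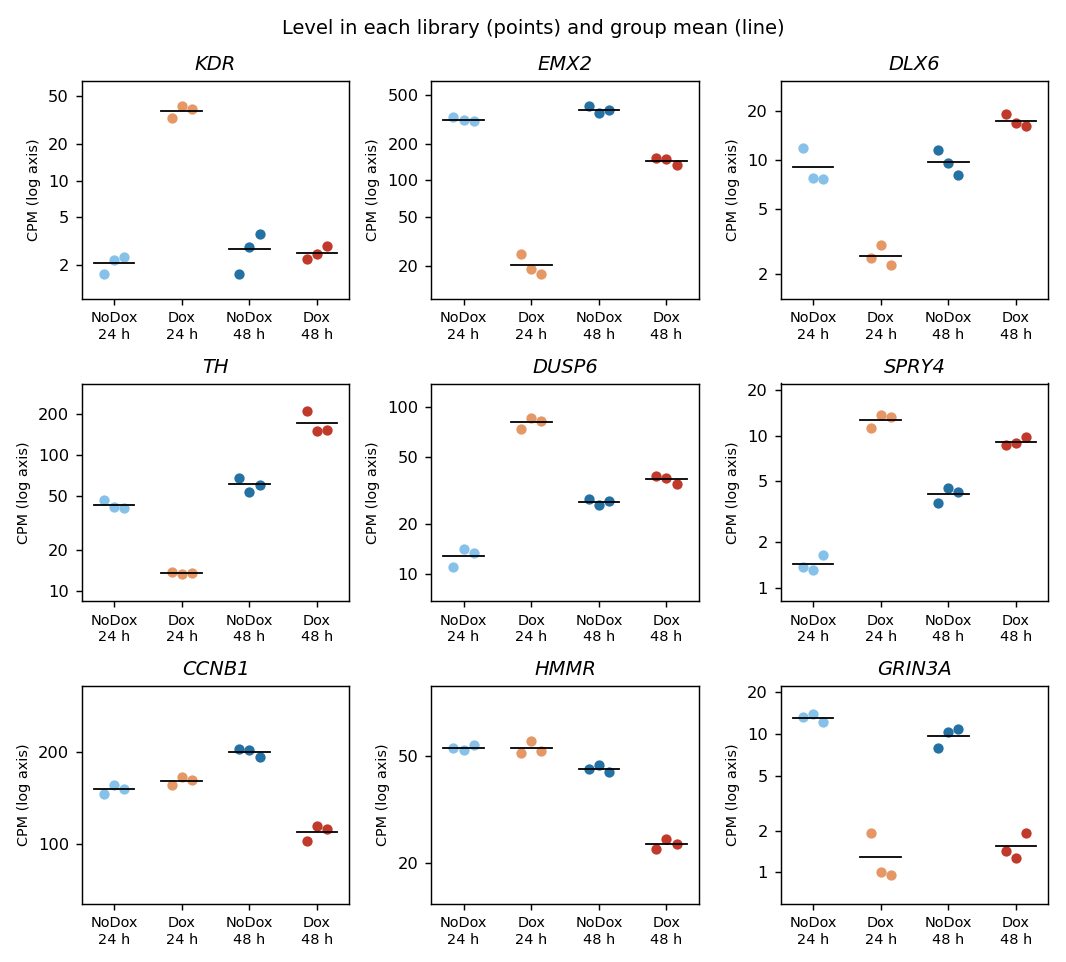
CPM on a log axis (vertical) in each of the 12 libraries by group (horizontal) for 9 genes; points are libraries and the line is the mean of 3. KDR falls into the NoDox range, EMX2 rises but stays below NoDox, DLX6 and TH cross from below NoDox to above it, the gap of DUSP6 narrows from both sides and that of SPRY4 mainly through NoDox, CCNB1 and HMMR separate at 48 h, and GRIN3A stays low.

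Other genes crossed from below to above NoDox. TH, RELN, PCDH9 and MOXD1 were chosen after their values were seen, as those with the largest smaller effect among genes called in both directions. TH, the rate-limiting enzyme of dopamine synthesis (chromosome 11, 2163929 to 2171815), was at 46.8, 41.6 and 40.6 CPM in NoDox at 24 h, 13.8, 13.3 and 13.4 CPM in Dox at 24 h, 68, 53.3 and 60.4 CPM in NoDox at 48 h and 209.7, 150.5 and 153 CPM in Dox at 48 h. Its effect was -1.67 ± 0.13 at 24 h and 1.50 ± 0.11 at 48 h, with a Dox arm of 3.66 against a NoDox arm of 0.49. RELN, the secreted guidance protein reelin, went from -1.50 ± 0.19 to 1.46 ± 0.16, the protocadherin PCDH9 from -1.52 to 0.99 and MOXD1 from -1.26 to 0.90. In the reverse direction NFE2L3, chosen in the same way, went from 1.07 ± 0.13 to -1.13 ± 0.16. ALS2CL (1.16, 3.66, 2.62 and 1.33 CPM in the 4 groups in the same order) and TPD52L1 (1.38 to -0.78) also did so, the first through both arms and the second NoDox-led.

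Most neuronal genes that were lower at 24 h were no longer called at 48 h. Of the postmitotic neuron genes, 13 of the 30 tested members had a positive change and 1 a negative one, with a median of 0.44. Of the 14, 11 were Dox-led, against 64.7% of all called changes. In the Dox arm 22 rose and 1 fell, in the NoDox arm 8 rose and 5 fell, and the median effect went from -0.64 with 21 members lower to -0.0838 with 4 lower. ELAVL3, an RNA-binding protein of neurons, had means of 122, 56.6, 149.9 and 146 CPM, and its effect at 48 h was -0.03 ± 0.12. SYT4, a synaptotagmin gene, changed through both arms, with the Dox arm at 0.50 and the NoDox arm at -0.61. MAP2, a dendritic microtubule protein gene, was NoDox-led: NoDox fell from 568 to 389.8 CPM, and Dox stood at 414 and 390.2 CPM.

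Genes that start neurogenesis changed mostly upward where they changed. Of this list, 10 of the 24 tested members had a positive change and 1 a negative one, with a median of 0.32, with 5 Dox-led, 3 NoDox-led and 3 of both arms. Both arms fell more often than they rose, with 14 falling members and 1 rising in NoDox and 11 falling and 7 rising in Dox. HES6, which promotes neuronal commitment, fell in NoDox from 257 to 152 CPM (-0.76) and was at 99.2 and 120.0 CPM in Dox (0.28), a change of 1.03 ± 0.10 (adjusted p = 6.46e-09). DLL3, an inhibitory Notch ligand, and GADD45G were likewise NoDox-led (0.65 ± 0.13 and 0.72 ± 0.15). SOX11, a factor of newborn neurons, was Dox-led, with means of 952, 672, 1183 and 1295 CPM. INSM1 was still lower at 48 h (-0.67).

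Radial glia and progenitor genes gained more often than they lost: 7 of the 19 tested members had a positive change and 1 a negative one, with a median of 0.24. PTPRZ1, a receptor phosphatase of radial glia, was at 492, 526 and 546 CPM in NoDox at 24 h, 294, 264 and 242 CPM in Dox at 24 h, 398, 374 and 378 CPM in NoDox at 48 h and 498, 530.1 and 570.0 CPM in Dox at 48 h, and its effect turned from -0.97 ± 0.11 to 0.47 ± 0.11. SOX21 (-1.79 to -0.60) and NR2E1 (-1.95 to -0.42) regained reads through the Dox arm. The member with a negative change was HES1, a Notch target that restrains neuronal differentiation, which was NoDox-led (-0.92 ± 0.15). Of the Notch pathway genes 7 of 23 had a positive and 3 a negative change, 6 and 5 with library totals only, and this list shares HES1 and HES5 with the radial glia list and DLL1, DLL3 and HES6 with the neurogenesis list. HEY1, a Notch target, was still higher with doxycycline at 48 h, 49 against 20.7 CPM, after 144 against 24.7 CPM at 24 h (change -1.30 ± 0.11, Dox-led).

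Axon guidance genes moved strongly in both directions: 13 of the 35 tested members had a positive change and 9 a negative one, with a median of 0.16. Of the 22, 15 were Dox-led, near the 64.7% of all called changes. ROBO2, a receptor for SLIT ligands (chromosome 3, 75906695 to 77649964), was at 55.7, 48.9 and 45.9 CPM in NoDox at 24 h, 8.98, 6.74 and 7.14 CPM in Dox at 24 h, 41.8, 37.1 and 40.8 CPM in NoDox at 48 h and 64.3, 74.3 and 69.5 CPM in Dox at 48 h. It had the lowest libraries in Dox at 24 h and the highest in Dox at 48 h, with effects of -2.72 ± 0.12 and 0.80 ± 0.11 and a change of 3.52 ± 0.16 (adjusted p = 3.92e-14). The netrin receptor DCC and the Eph receptor EPHA7 were not called at 48 h, with effects of -0.20 ± 0.17 and -0.09 ± 0.10. NRP2, a semaphorin receptor, and UNC5B, a repulsive netrin receptor, went from higher to lower than NoDox through both arms (1.31 to -0.42 and 1.16 to -0.38). SLIT3, a ligand of the ROBO receptors, was at 3.19 at 24 h and 2.19 at 48 h.

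ERK feedback genes lost most of their Dox effect while the NoDox cultures gained reads. Of the ERK feedback and PEA3 genes, 0 of the 17 tested members had a positive change and 13 a negative one, with a median of -0.99, and of these 13 only 3 were Dox-led, 6 were NoDox-led and 4 came from both arms. The NoDox arm rose for 14 members and fell for none, and the Dox arm fell for 9 and rose for 3. The median effect went from 1.17 at 24 h with 13 members higher to 0.0846 at 48 h with 6 higher and 1 lower, or 4 higher and 4 lower with library totals only. DUSP6, a phosphatase that inactivates ERK (chromosome 12, 89347235 to 89352501), was at 11, 14.1 and 13.4 CPM in NoDox at 24 h, 73.6, 86.3 and 82.4 CPM in Dox at 24 h, 28.1, 25.9 and 27.2 CPM in NoDox at 48 h and 38.5, 37.8 and 34.9 CPM in Dox at 48 h. The Dox libraries lie above the NoDox libraries at both times, but the gap closed from both sides: the Dox arm fell by 1.12 ± 0.10, the NoDox arm rose by 1.09 ± 0.11, and the change was -2.21 ± 0.15 (adjusted p = 1.08e-11).

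SPRY2, an inhibitor of FGF receptor signalling, repeated this pattern, with means of 25, 156, 61.1 and 78.8 CPM. So did SPRY1 (67.4, 253, 103 and 139.6 CPM). In the PEA3 factor ETV5 (25.6, 75.8, 54.4 and 45.9 CPM) both arms moved too, and its effect at 48 h was -0.24 ± 0.10. SPRY4 was NoDox-led. It was at 1.37, 1.30 and 1.64 CPM in NoDox at 24 h, 11.3, 13.8 and 13.2 CPM in Dox at 24 h, 3.61, 4.54 and 4.29 CPM in NoDox at 48 h and 8.71, 8.92 and 9.82 CPM in Dox at 48 h, and NoDox rose by 1.54 ± 0.23 while the Dox arm was at -0.48 ± 0.17. The phosphatase genes DUSP4 and DUSP5 were NoDox-led too, with NoDox arms of 0.70 and 1.41. The 3 Dox-led members were ETV4 (-2.18 ± 0.19), CCND1, the cyclin that FGF signals induce (-1.20 ± 0.10), and IL17RD, a membrane inhibitor of the pathway (-0.87 ± 0.11). FOSL1 rose alike in both arms (1.72 and 1.71), and its change was 0.01 ± 0.27, with an interval of -0.54 to 0.57.

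The sequence before the start of DUSP6 is shown with that of SPRY2 because both genes approached NoDox from both sides. CCGGAA, a core bound by ETS factors such as ETV4, is in capitals where found on either strand. The windows lie on GRCh38.p14 at chr12:89352502-89352751, minus strand and chr13:80341127-80341376, minus strand, the latter before 1 of the 3 RefSeq starts of SPRY2.
DUSP6: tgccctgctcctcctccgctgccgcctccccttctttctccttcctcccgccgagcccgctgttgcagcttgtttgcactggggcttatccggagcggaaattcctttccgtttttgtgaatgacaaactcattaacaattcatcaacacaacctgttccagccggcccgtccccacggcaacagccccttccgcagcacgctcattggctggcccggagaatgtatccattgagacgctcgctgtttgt
SPRY2: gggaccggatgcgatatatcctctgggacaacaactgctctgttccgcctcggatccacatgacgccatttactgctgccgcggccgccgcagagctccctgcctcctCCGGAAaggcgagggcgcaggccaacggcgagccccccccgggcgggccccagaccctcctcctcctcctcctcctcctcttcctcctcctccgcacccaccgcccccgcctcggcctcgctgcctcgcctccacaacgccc
The DUSP6 window holds none and the SPRY2 window 1. The core was found in 6 of 21 windows of the ERK list (28.6%), in 5 of 19 of the G2 and M phase list (26.3%) and in 14.5% of all windows.

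Of the FGF ligands and receptors, 2 of the 13 tested members had a positive change and 6 a negative one, with a median of -0.0841. FGF8, a morphogen of the anterior forebrain (chromosome 10, 101770109 to 101780371), was at 5.89, 7.93 and 7.30 CPM in NoDox at 24 h, 62.7, 59.3 and 61.7 CPM in Dox at 24 h, 13, 12.5 and 12.1 CPM in NoDox at 48 h and 22.4, 20.1 and 18.9 CPM in Dox at 48 h, and both arms closed the gap (-1.58 in Dox and 0.84 in NoDox, change -2.43 ± 0.17, adjusted p = 2.14e-11). The receptors FGFR1 (-0.30 ± 0.08), FGFR2 (-0.65 ± 0.16), FGFR3 (-0.30 ± 0.10) and FGFR4 (-0.54 ± 0.14) all lost part of their increase, FGFR1 and FGFR4 NoDox-led. FGFR2 stayed higher at 48 h (1.25). FGF9 went the other way, from -1.37 to -0.09 ± 0.20.

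By the class definition a NoDox-led gain is a gene that fell in NoDox, and the largest are given here. DACH1, a nuclear factor of forebrain progenitors (chromosome 13, 71437966 to 71867204), was at 96.8, 95.1 and 95.7 CPM in NoDox at 24 h, 22.1, 19.9 and 18.4 CPM in Dox at 24 h, 40.5, 44.4 and 43.6 CPM in NoDox at 48 h and 27.4, 33.3 and 28.8 CPM in Dox at 48 h. NoDox fell by 1.16 ± 0.08 while Dox rose by 0.57 ± 0.09, the change was 1.73 ± 0.12 (adjusted p = 2.23e-11), and Dox still lay lower at 48 h. In DCT, a melanin-pathway enzyme that forebrain progenitors also express, the Dox arm was at 0.42 ± 0.33 and NoDox fell from 12.6 to 3.38 CPM. OTX1, a forebrain homeobox gene, ARID3C and SAMD5 had NoDox arms of -1.25, -1.59 and -0.93 and Dox arms of 0.23, -0.37 and 0.25. The call of SAMD5 (1.17 ± 0.41, adjusted p = 0.0334) was lost in 9 of the 12 fits that left out 1 library, with adjusted p-values up to 0.101.

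By the same definition NoDox-led losses are genes that rose in NoDox. RASL12, a RAS-like gene, rose in NoDox from 0.842 to 2.59 CPM, and GABRA5, a GABA receptor subunit, from 1.79 to 4.97 CPM, while Dox went from 6.36 to 5.25 CPM for GABRA5 (Dox arm -0.28 ± 0.18). PPP1R14A, a myosin phosphatase inhibitor gene, ran like GABRA5 (1.36 in NoDox and -0.37 in Dox). Through both arms, the cannabinoid receptor CNR1 rose in Dox from 0.936 to 3.17 CPM and fell in NoDox from 21.8 to 8.33 CPM (change 3.11 ± 0.35, adjusted p = 5.04e-07). The adhesion genes VCAM1 (2.23 ± 0.29) and CNTN4 (2.09 ± 0.24), the Eph receptor EPHA3 (2.07 ± 0.21) and NKAIN3 (2.05 ± 0.22) met in the same way, and their effects at 48 h were between -0.28 and 0.34. LGI1, a secreted neuronal protein gene, met from the other side (1.85 to -0.37).

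A separate group of genes differed little at 24 h and fell below NoDox at 48 h, among them the G2 and M phase genes. Of these, 0 of the 22 tested members had a positive change and 17 a negative one, with a median of -0.61. At 24 h none of the 22 was higher and 7 were lower with a median effect of -0.0718, and at 48 h all 22 were lower with a median of -0.69. CCNB1, the cyclin that drives entry into mitosis (chromosome 5, 69167135 to 69178245), was at 145, 155 and 151 CPM in NoDox at 24 h, 155, 166 and 162 CPM in Dox at 24 h, 204, 202 and 192 CPM in NoDox at 48 h and 102, 115 and 112 CPM in Dox at 48 h. All 3 Dox libraries at 48 h lie below every other library. NoDox rose by 0.41 ± 0.08 and Dox fell by 0.55 ± 0.08, a change of -0.96 ± 0.11 (adjusted p = 4.61e-07). The arms differed among members: 5 of the 17 were Dox-led, 8 NoDox-led and 4 of both arms. Across the list NoDox rose for 13 members and fell for 6, whereas Dox rose for none and fell for 13.

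HMMR, a spindle protein gene, was Dox-led: it was at 53.5, 52.7 and 55.1 CPM in NoDox at 24 h, 51.5, 57.1 and 52.5 CPM in Dox at 24 h, 44.8, 46.1 and 43.6 CPM in NoDox at 48 h and 22.5, 24.5 and 23.4 CPM in Dox at 48 h, with an effect of -0.00132 ± 0.07 at 24 h and -0.93 ± 0.07 at 48 h. CENPF, a kinetochore gene, and BUB1B, a spindle checkpoint kinase gene, did the same (-0.82 ± 0.11 and -0.70 ± 0.10). CDC20, an activator of the anaphase-promoting complex, was NoDox-led, since NoDox went from 109.7 to 157 CPM and Dox from 113 to 96.6 CPM. The kinesin KIF20A, the cyclin CCNB2 and the kinase AURKA were NoDox-led as well. Members without a call were MKI67 (-0.67 ± 0.24, adjusted p = 0.0552), TTK (-0.29 ± 0.11), AURKB (-0.29 ± 0.12), NUSAP1 (-0.26 ± 0.10) and KIF11 (-0.19 ± 0.10). In the other settings that tested against zero, 15 to 22 members were lower.

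**Figure D4:**
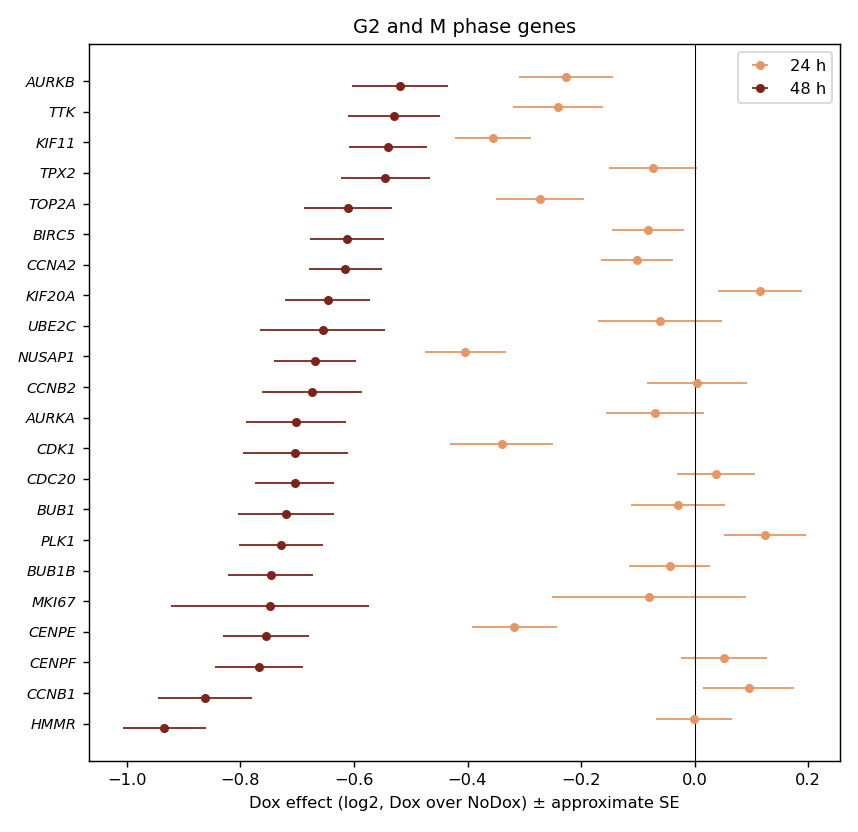
The Dox effect (horizontal axis, log2 of Dox over NoDox) at 24 h and 48 h for the 22 G2 and M phase genes (rows); points are fitted values and bars are approximate standard errors, n = 3 libraries per group. All 22 lie below 0 at 48 h, and their median is -0.69 against -0.0718 at 24 h.

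The window before the start of CCNB1 is shown for the mitotic genes because it holds CCAAT, the box bound by NF-Y (in capitals, either strand). TTTGAA, the core of the cell cycle homology region, was searched too and was not found in it; both motifs were chosen after the results of the list were seen. The window lies on GRCh38.p14 at chr5:69166900-69167149, plus strand, and its last bases fall within the gene as the count table gives it.
CCNB1: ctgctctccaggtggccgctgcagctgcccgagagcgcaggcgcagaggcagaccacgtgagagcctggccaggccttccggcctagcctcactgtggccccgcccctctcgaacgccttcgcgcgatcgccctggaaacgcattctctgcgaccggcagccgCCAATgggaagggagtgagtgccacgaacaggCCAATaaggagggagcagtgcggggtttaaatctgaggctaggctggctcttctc
CCAAT was found in 17 of 19 windows of the G2 and M phase list (89.5%), in 6 of 10 of the LGE list (60%) and in 32% of all windows, and TTTGAA in 10 of 19 (52.6%) against 13.3%. Also searched were TGAGTCA, bound by AP-1, in none of the 19 and 4.2% of all, and CACGTG, an E-box, in 4 of 19 (21.1%) and 6.34%.

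The G1 and S phase genes did not follow the mitotic genes. They had 5 positive and 4 negative changes among 24 tested, with a median of 0.00224 (-0.0589 with library totals only), and fell in both arms, 20 members in Dox and 19 in NoDox; the positive changes were 2 to 6 across the other settings. UHRF1, a factor of maintenance DNA methylation, turned from 0.35 ± 0.09 to -0.62 ± 0.10. Among cell cycle inhibitors, the p27 gene CDKN1B rose from 82.8 to 159 CPM in Dox, its effect going from -0.58 to 0.15, while CDKN2B (-1.25) and CDKN2C (-1.27) stayed lower at 48 h after -2.67 and -2.21 at 24 h. CDKN3, a phosphatase gene that is itself expressed in dividing cells, went from 0.12 ± 0.17 to -1.29 ± 0.18. Named after their values were seen, MAOB, a monoamine oxidase gene, was called lower at 48 h (0.15 ± 0.18 to -1.32 ± 0.21), and so were LRRC10B (-0.05 ± 0.13 to -1.38 ± 0.16) and NME5 (0.25 ± 0.19 to -1.49 ± 0.33), whereas TMPRSS9 (0.40 ± 0.22 to 1.49 ± 0.21) and SPP1, the osteopontin gene (-0.36 ± 0.25 to 1.04 ± 0.26), were higher.

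Another set kept a called effect. In all, 856 genes were called at both times in the same direction with no call for the change, which does not show that the effect was equal. GRIN3A, an NMDA receptor subunit (chromosome 9, 101569352 to 101738647), was at 13.2, 13.8 and 12.2 CPM in NoDox at 24 h, 1.94, 1.00 and 0.950 CPM in Dox at 24 h, 7.91, 10.4 and 10.8 CPM in NoDox at 48 h and 1.43, 1.27 and 1.94 CPM in Dox at 48 h. The Dox libraries lie below every NoDox library at both times, and the change was 0.66 ± 0.34 (adjusted p = 0.153), with an interval of -0.03 to 1.35; it was called without Dox 24 h replicate 1 (adjusted p = 0.0224). SPINK5, a protease inhibitor gene, was also low (-3.78 ± 0.23 and -3.04 ± 0.24), and the calcium-binding protein genes CALB1 (-2.87 and -2.03) and CABP7 (-2.85 and -1.77) stayed low. CABP7 was close to the threshold (1.08 ± 0.41, adjusted p = 0.0528) and was called in 7 of the 19 other settings that tested against zero, among them those without Dox 24 h replicate 1, without NoDox 48 h replicate 1 and without Dox 48 h replicate 3. BGN, the proteoglycan biglycan, was at 2.91, 4.03 and 2.60 CPM in NoDox at 24 h, 11.8, 12.9 and 11.2 CPM in Dox at 24 h, 4.99, 4.14 and 4.66 CPM in NoDox at 48 h and 12.5, 11.3 and 12.2 CPM in Dox at 48 h, with no overlap at either time (change -0.53 ± 0.24, adjusted p = 0.104, interval -1.01 to -0.04; adjusted p = 0.0345 without NoDox 24 h replicate 2). The PACAP receptor ADCYAP1R1 stayed higher too (1.68 and 1.20).

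CER1, a secreted antagonist of Nodal and BMP, and the genes SELE and FOXI1 were in the same set by their calls, but their levels fell. CER1 was at 0.146, 0.336 and 0.183 CPM in NoDox at 24 h, 16, 14.3 and 14.8 CPM in Dox at 24 h, 0.0531, 0 and 0.0523 CPM in NoDox at 48 h and 1.21, 0.796 and 1.09 CPM in Dox at 48 h, and the Dox arm fell by 3.87 ± 0.27. Since NoDox was near 0 at 48 h, the change of -1.43 ± 1.72 has a wide interval, -4.95 to 2.09. SELE, the gene of E-selectin, went from 19 to 1.90 CPM in Dox and FOXI1, a forkhead gene, from 10.1 to 0.716 CPM. CER1, SELE and FOXI1 each passed for a negative change under at least 1 other tool or filter.

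Among other signals, BMP2 lost part of its increase and follistatin lost its decrease. Of the BMP, Nodal and TGF-beta list, 4 of the 31 tested members had a positive change and 8 a negative one, with a median of -0.26. BMP2, a BMP ligand, went from 3.24 ± 0.10 to 0.87 ± 0.10, with means of 7.39, 70.0, 12.4 and 22.6 CPM, and the BMP target ID2 from 1.90 to 0.73. FST, the activin antagonist follistatin, returned from below: its means were 117, 32.5, 123 and 123 CPM and its effect at 48 h was -0.00356 ± 0.08. NOG, another BMP antagonist, lost an increase instead (1.05 to -0.18), so the antagonists did not move as 1 group. TGFB1 was NoDox-led, rising in NoDox from 25.2 to 48.6 CPM. Of the WNT pathway genes, 8 of the 40 tested members had a positive change and 9 a negative one, with a median of -0.0647. Of the 17, 13 were Dox-led, against 64.7% of all called changes. WNT7A, a ligand, went from 1.62 to 16.3 CPM in Dox against 11 and 10.0 CPM in NoDox (change 3.48 ± 0.42, adjusted p = 7.03e-06), whereas WNT7B went from 0.73 to -0.65. The receptor gene LGR5 turned from -1.36 to 0.39 and the receptor FZD7 went from 1.50 to 0.26.

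Of the retinoic acid list 2 of 14 tested had a positive and 2 a negative change, near the shares of all genes (12.7% and 13.1%). Among them were RARB, a retinoic acid receptor that is a marker of the striatal lineage (-2.52 to 0.45), and STRA6, a retinol transporter gene (2.07 to 0.77). The Hedgehog list had none positive and 2 negative of 11 tested, with GAS1, a Hedgehog co-receptor, at 1.40 and 0.02. Immediate early genes rose in both cultures, 20 of 24 in Dox and 17 in NoDox, and 8 had a positive change and 4 a negative one. NR4A1, an orphan nuclear receptor, was close in both at 48 h, with means of 171, 83.3, 329 and 338 CPM, an effect of 0.04 ± 0.08, and CCN1, a matrix protein gene, was at 331, 152, 640.1 and 672 CPM. IER3 met from above through both arms (1.99 to -0.01). Of the ATF4 stress genes none had a positive and 7 of 22 a negative change, 12 with library totals only and 11 without Dox 48 h replicate 2, with the amino acid transporter SLC7A5 (-0.92 ± 0.18) and the folate enzyme MTHFD2 (-0.79 ± 0.13) foremost.

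The lists of this paragraph stand against 12.7% of all genes with a positive and 13.1% with a negative change. Hypoxia and glycolysis genes had 3 positive and 6 negative changes of 25 tested, among them the glucose transporter SLC2A1 (-0.88 ± 0.11). Cholesterol synthesis genes rose in both arms, 15 and 14 of 21, with 1 positive and 2 negative changes of the effect. Mitochondrially encoded genes fell in both arms, 11 and 9 of 13, with 2 negative changes, or 5 with library totals only. The plot of list medians shows the ERK list and the G2 and M phase list moving down and the LGE, neuronal and immediate early lists moving up.

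**Figure D5:**
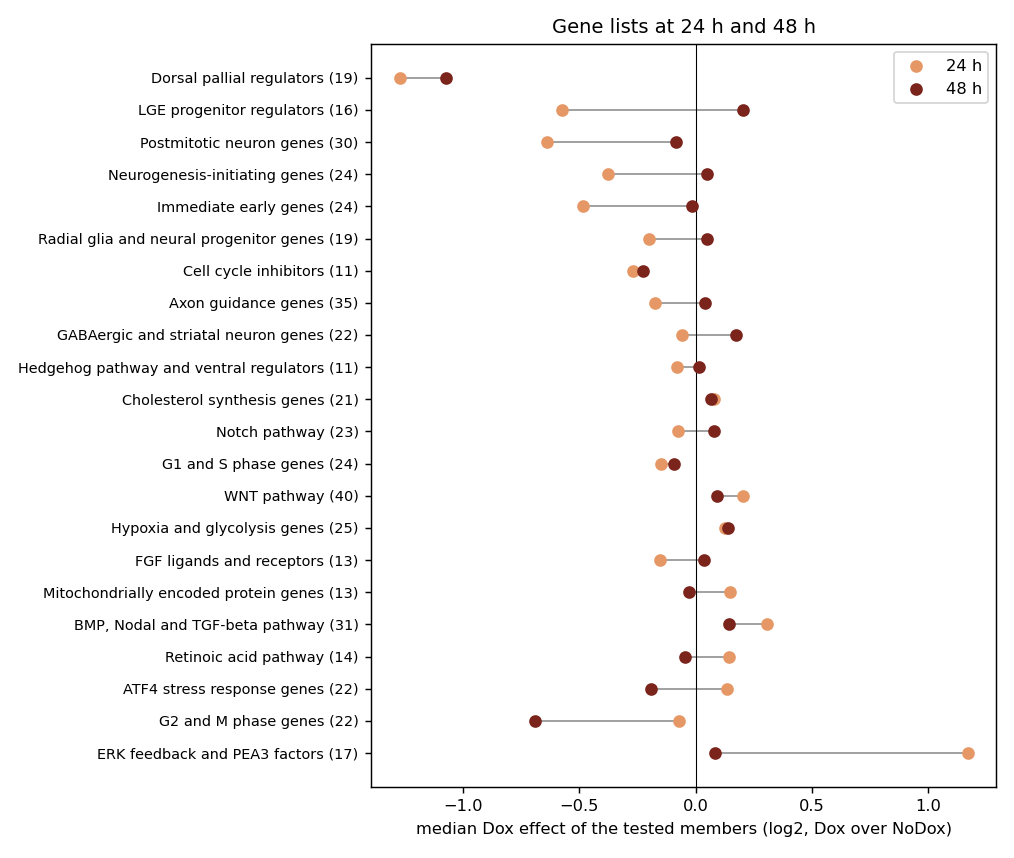
The median Dox effect (horizontal axis, log2 of Dox over NoDox) at 24 h and 48 h over the tested members of 22 gene lists (rows, tested members in parentheses), ordered by the median change; the grey line joins the 2 times. The ERK list goes from 1.17 to 0.0846 and the G2 and M phase list from -0.0718 to -0.69.

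Markers of some other cell types are given beside the shares of all genes, 12.7% with a positive and 13.1% with a negative change. Neural crest markers had none positive and 5 of 7 tested negative; their summed level was 597 to 631 CPM in NoDox and 764 to 905 CPM in Dox at 24 h, and 519 to 561 and 746 to 765 CPM at 48 h, so the Dox sums lie above the NoDox sums at both times. SOX10, a neural crest and oligodendrocyte factor, was at 7.19, 26.7, 13.2 and 19.6 CPM. Epithelial markers had none positive and 4 of 7 negative, with sums of 278 to 308 against 446 to 572 CPM at 24 h and 409 to 449.8 against 398 to 431 CPM at 48 h. The largest negative changes were those of the keratin KRT18 (1.69 to -0.03) and of GRHL3 (a change of -1.54), followed by the keratin KRT8 (0.90 to 0.02). Mesenchymal and endothelial markers had 1 positive and 3 negative of 10, with sums of 548 to 624 against 1050.0 to 1514 CPM at 24 h and 967 to 1201 against 1006 to 1368 CPM at 48 h; COL1A1, a collagen gene, was NoDox-led (-1.25 ± 0.24). The part of these cells in the changes of the effect was not tested.

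Markers of the diencephalon and eye field were split, 2 positive and 2 negative of 10. VAX1 (2.23 to 0.63) and RAX (1.32 to 0.42) lost an increase. Of 5 pluripotency markers tested 2 had a negative change, of 4 mesoderm and endoderm markers 1, of 7 oligodendrocyte markers 2, and of 7 astrocyte markers 2 a positive and 3 a negative one. The cortical hem list had 1 of each among 8, and of 4 midbrain and hindbrain markers IRX1 had a positive change (1.65 ± 0.24). Beside the same shares of all genes, counts from so few members are not read as results about these cell types.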

How the data were processed

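Poly(A) RNA libraries were made with a directional kit, per the labels' protocols. The submitters' processing notes name STAR 2.7.9, Subread 2.0.3, DESeq2 and hg38; which annotation and strand option the counting used is not given in the sources used here. Raw counts per gene were deposited by the authors, with the same counts divided by 1 factor per library, a normalized signal used only as an alternative with a pseudocount of 1.

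Of 61268 features, 19655 passed filterByExpr and hold 99.92% of the counts. All 21 libraries entered 1 edgeR 4.0.16 quasi-likelihood fit (R 4.3.3, TMM scaling, 14 residual degrees of freedom) with 7 groups, and p-values were adjusted by Benjamini and Hochberg over all genes tested. The approximate standard error is the log2 value over the root of F. Intervals are at 95%. The biological coefficient of variation was 7.24%.

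The members and lists (32 lists, 574 members, 522 tested) were chosen with earlier results of these data known. Genes were named by rule: GSX2 and the transgene; the 5 largest changes in each direction and arm class at 2 CPM or more; the 5 largest effects in each direction called at both times without a called change; and up to 4 members per list, with other members by their values. Genes outside the rule are said to be so.

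On simulated counts the test of the change recovered 90% of genes changed by 1 and 98% of those changed by 2 on the log2 scale. There were 11 false calls among 19455 unchanged genes. The simulation gave all 7 groups the same mean per gene and changed 200 genes at 2 CPM or more, in Dox 48 h only. Recovery was counted without regard to sign. In the data both arms moved broadly and lower genes were tested, so these rates may not carry over. Alternatives were DESeq2 1.42.0, its size factors, library totals, no filter, limma 3.58.1 on the deposited signal, a replicate block, 4 groups only, an arm ratio of 3, a test against a log2 change of 1, and each library left out. Promoter sequences are from RefSeq (GRCh38.p14); 10 of 17 ERK, 13 of 19 dorsal, 9 of 16 LGE and 17 of 22 G2 and M phase genes matched. Some items are not reported here.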

Additional observations from a re-analysis of the deposited data

Results flagged for a closer look

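The Dox effect had opposite signs at 24 h and 48 h, with both effects and their difference past the threshold of edgeR's quasi-likelihood test, for 250 genes that went from below NoDox to above it and for 229 that went from above to below. Among the genes chosen by the naming rule with a mean of at least 2 CPM, the 14 given here did so. Upward changes of the effect were 3.52 for ROBO2, 2.67 for DLX6, 2.48 for LUM, 1.76 for LGR5, 1.65 for IRX1, 1.44 for PTPRZ1 and 1.09 for MYT1, on the log2 scale. Downward changes were -2.61 for ALS2CL, -2.16 for TPD52L1, -1.55 for CSPG4, -0.98 for UHRF1, -0.94 for ERBB3, -0.79 for MTHFD2 and -0.58 for SLBP. DLX6 may share reads with its antisense transcript. Groups of 3 libraries were not examined for outliers.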

How the results depend on the processing

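Apart from the test against a log2 change of 1, the other settings left 300 of 307 counts within 1.5 times the reported value, and 120 of the 142 named genes kept their direction and side of the threshold in all 19 settings; no direction reversed. With library totals only, the effect at 48 h was called for 1017 genes upward and 2835 downward. With the 4 groups alone, 456 effects grew. With an arm ratio of 3, 2351 genes changed through both arms. Against a log2 change of 1, the counts upward and downward were 125 and 64 for the change, 443 and 466 for the Dox arm, 27 and 29 for the NoDox arm, 224 and 293 for the effect at 24 h and 8 and 20 at 48 h; the arm classes were 144 Dox-led, 9 NoDox-led and 36 of both, and the shapes 97 smaller, 92 of opposite sign and 0 larger. This follows from the stricter null.

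Leaving out 1 library gave 1925 to 2427 upward and 2141 to 2575 downward changes, 1041 to 1762 upward effects at 48 h and 176 to 290 larger effects. With the replicate block 5168 genes were called, 4975 of them among the 5064. Same-numbered libraries correlated weakly, by 0.00531 to 0.0925. Each library still correlated best with its own number, except Dox 24 h replicate 3 with NoDox 48 h. The numbers may therefore mark a shared structure, which the main fit ignored and the replicate block took in. Genes with under 3 counts in a group have imprecise changes.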
